A study of Mus musculus with 6 samples.

Results

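The levels of 10 genes of phagocytosis and lipid handling were followed in injured mouse cortex. They are Msr1, Cd36, Axl, Cd68, Gpnmb, Cst7, Lgals3, Apoe, Lpl and Aif1, taken by symbol as 10 of the 56826 rows of the deposited gene table. All mice were C57BL/6, a common inbred strain, and wild type. The control group is normal cortex, with 3 libraries, and the TBI group, also with 3, is cortex taken near the injury 24 h after a traumatic brain injury. The study profiled messenger RNA and long non-coding RNA in injured tissue. The labels do not give the age or sex of the mice, how the injury was made, or whether each library came from a separate animal, so p-values measure the spread between these libraries, which may be technical. Each gene has a deposited read count and an RPKM value (count per kilobase of row and scaled to the size of the library) in all 6 libraries.

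Macrophages and microglia clear dead cells, myelin and blood after a brain lesion. Scavenger receptors and receptors for exposed phosphatidylserine take up the material, lysosomes degrade it, and the lipid that remains is hydrolysed, stored or handed to lipoproteins for export. Several of these genes are known from lipid-laden macrophages elsewhere in the body and from microglia around plaques and degenerating axons, while others are also made by astrocytes, neurons or endothelial cells. In bulk tissue, more cells of a type and more RNA per cell cannot be told apart.

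Of the 10 genes, 9 rose and 1, Apoe, fell (edgeR quasi-likelihood test, adjusted p under 0.05 over all 42762 rows tested). Over all gene rows tested, 9.12% were called higher and 8.36% lower, and over 14554 protein-coding genes matched by symbol 16.5% and 11.2% (27.7% in either direction). All 10 genes passed the filter on low counts. The median log2 fold change of the 10 was 2.09, beside 0.01 over all rows and 0.02 over protein-coding genes. RPKM values of control and TBI libraries did not overlap for any of the 10. Groups were apart in this way for 23.2% of gene rows with TBI higher and 11.2% with TBI lower, and for 34.6% and 12.9% of protein-coding genes. RPKM lacks the further library scaling (TMM) of the fit, with factors of 0.9547 to 0.9978 in control and 1.026 to 1.031 in TBI libraries. RPKM therefore sets TBI slightly higher against control than the fit does. At least 2-fold rises were seen in 7 of the 10, against 8.53% of protein-coding genes. The rises ran from 0.51 on the log2 scale for Axl to 6.85 for Msr1, which was 32nd of the 14554 protein-coding genes by fitted rise, and Lgals3 was 40th.

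**Figure D1:**
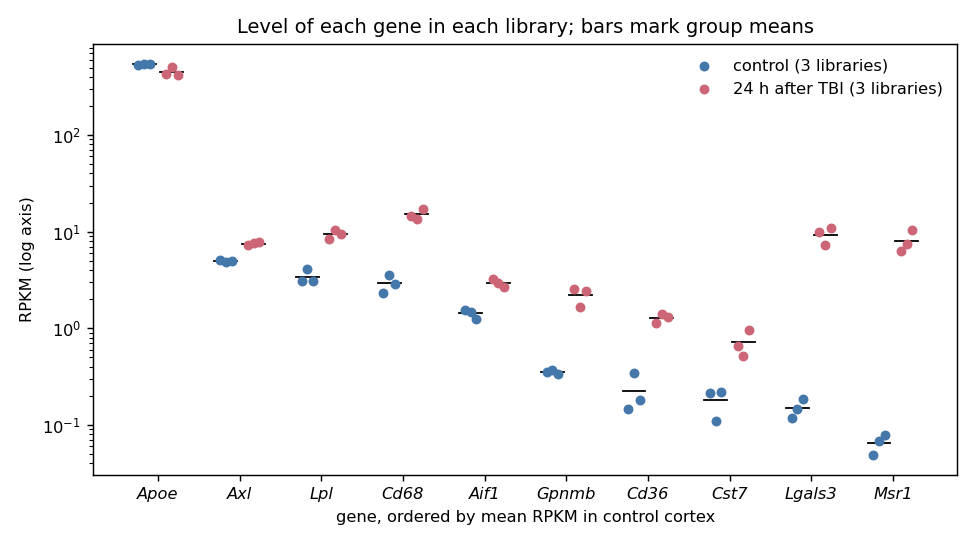
RPKM (log axis) of each gene in the 3 control and 3 TBI libraries, with genes ordered by mean RPKM in control cortex and bars at group means. Apoe sits at 421 to 550 RPKM in every library, and the TBI points lie above the control points for the other 9 genes, furthest for Lgals3 and Msr1.

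The DNA just before the start sites is shown for genes that rose by very different amounts and for the gene that fell. A RefSeq promoter window (GRCm38.p6, the assembly behind mm10, the build in the submitters' processing notes) was matched for 8 of the 10 genes; Msr1 and Lpl had no entry. The 5 windows printed hold the 250 bases before the start, for 4 risen genes whose RefSeq start equals the start of the deposited row, and for Apoe, the gene that fell, whose RefSeq start lies 22 bases from it. Sequences run 5′ to 3′ on the strand of the gene, and capitals mark matches to any of 4 motifs searched on both strands: TGANTCA (AP-1), GAGGAA (a core of PU.1, the myeloid ETS factor), CACGTG (E-box) and TTGNNCAA (C/EBP).
Lgals3 (chr14:47373610-47373859, plus strand): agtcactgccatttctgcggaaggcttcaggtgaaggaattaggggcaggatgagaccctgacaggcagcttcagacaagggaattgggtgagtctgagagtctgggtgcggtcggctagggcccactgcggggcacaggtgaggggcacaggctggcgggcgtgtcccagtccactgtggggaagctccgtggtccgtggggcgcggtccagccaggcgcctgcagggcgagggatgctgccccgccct
Gpnmb (chr6:49036268-49036517, plus strand): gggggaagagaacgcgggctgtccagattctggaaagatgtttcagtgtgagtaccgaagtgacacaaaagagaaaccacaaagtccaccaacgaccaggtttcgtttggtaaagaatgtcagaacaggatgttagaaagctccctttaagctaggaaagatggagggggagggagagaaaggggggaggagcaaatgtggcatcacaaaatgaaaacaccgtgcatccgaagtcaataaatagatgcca
Cst7 (chr2:150570165-150570414, plus strand): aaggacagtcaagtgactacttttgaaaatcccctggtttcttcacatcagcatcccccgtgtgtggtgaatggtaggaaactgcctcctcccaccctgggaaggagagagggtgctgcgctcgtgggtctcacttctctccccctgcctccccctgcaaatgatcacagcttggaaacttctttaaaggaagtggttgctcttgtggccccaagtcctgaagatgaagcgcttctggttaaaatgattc
Axl (chr7:25788734-25788983, minus strand): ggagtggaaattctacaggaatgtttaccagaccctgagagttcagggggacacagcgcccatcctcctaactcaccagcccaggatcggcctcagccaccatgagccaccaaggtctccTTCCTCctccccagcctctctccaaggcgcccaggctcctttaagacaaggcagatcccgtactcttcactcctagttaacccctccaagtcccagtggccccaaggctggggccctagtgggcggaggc
Apoe (chr7:19699189-19699438, minus strand): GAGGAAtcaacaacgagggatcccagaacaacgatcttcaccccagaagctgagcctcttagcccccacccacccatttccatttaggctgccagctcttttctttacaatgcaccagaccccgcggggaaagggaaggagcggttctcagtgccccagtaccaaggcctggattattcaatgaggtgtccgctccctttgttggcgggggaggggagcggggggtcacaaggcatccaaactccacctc
No motif matched in the windows of Lgals3, Gpnmb and Cst7. One GAGGAA match lies in Axl, beginning 130 bases before the start and read on the opposite strand, and 1 lies at the far end of the Apoe window, 250 bases before the start. The 8 genes have 10 windows, 3 of them of Apoe, which therefore had more chances of a match. GAGGAA was found in a window of 4 genes (Aif1, Apoe, Axl and Cd68), beside 23.3% of the 32851 windows of this length in the table. TGANTCA was found in Cd68 alone, at 149 and 24 bases before its RefSeq start, beside 6.75% of windows, and the other motifs in none of the 8, beside 6.02% for CACGTG and 5.65% for TTGNNCAA. The RefSeq start of Cd68 lies 476 bases from that of the deposited row, so its window is inside the row, and that of Cd36 lies 53063 bases away. A match is a description of letters and not of binding.

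The uptake receptors Msr1, Cd36 and Axl all rose, from very different starting levels. Msr1, the class A scavenger receptor for modified lipoproteins and microbial surfaces (chromosome 8, 39543267 to 39642748, minus strand, mm10), was at 0.0483, 0.0675 and 0.0775 RPKM in control replicates 1 to 3 and at 6.25, 7.36 and 10.4 RPKM in TBI replicates 1 to 3. It was close to silent in each control library, with 13, 20 and 26 counts, whereas the TBI libraries held 1779, 2123 and 2866. The group means of 0.0644 ± 0.0148 and 8.01 ± 2.16 RPKM (mean ± SD of 3 libraries, here and wherever ± follows an RPKM mean) differed by a log2 fold change of 6.85 ± 0.24 (SE), with an edgeR adjusted p of 5.46e-09. The deposited transcript table holds 2 forms of Msr1, of 1467 and 3643 bases as implied by count and RPKM, whose counts share reads. Counts of the shorter form were 38.5%, 45.0% and 53.8% of those of the longer one in control libraries and 43.6%, 40.0% and 40.2% in TBI libraries. With 13 to 26 counts the control shares have wide Wilson 95% intervals (17.7 to 64.5% in control replicate 1, counting error only), and they overlap the TBI shares.

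Cd36, a class B scavenger receptor and fatty acid carrier that endothelial cells also make (chromosome 5, 17781690 to 17888959, minus strand), was at 0.144, 0.344 and 0.179 RPKM in control and 1.12, 1.39 and 1.3 RPKM in TBI libraries. Control replicate 2 held the highest control value, still well below the lowest TBI library. Its log2 fold change was 2.44 ± 0.25 (edgeR adjusted p = 3.02e-05). The 5 deposited Cd36 transcripts gave almost the same counts as each other and log2 fold changes of 2.42 to 2.43, so they do not separate the alternative starts of this gene. Of the relatives of Cd36, Scarb1, a receptor for high-density lipoprotein, was at 2.13 ± 0.331 and 2.92 ± 0.579 RPKM and was not called (edgeR adjusted p = 0.114). Its log2 fold change of 0.38 had a 95% interval of 0.05 to 0.70, and it was called without TBI replicate 2, at 0.0201. Scarb2, a lysosomal membrane protein, had a log2 fold change of 0.06 (-0.02 without control replicate 2, edgeR adjusted p = 0.719 with all libraries). Cd36 made up 0.408%, 1.08% and 0.509% of the summed RPKM of the 3 genes in control and 2.78%, 3.82% and 3.19% in TBI libraries.

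Axl, a receptor tyrosine kinase of the TAM family that binds phosphatidylserine through the bridging protein Gas6 (chromosome 7, 25756500 to 25788733, minus strand), was at 5.13, 4.80 and 5.01 RPKM in control and 7.22, 7.54 and 7.72 RPKM in TBI libraries. The step was small and the libraries of a group were close together, with coefficients of variation of 3.35% and 3.39%. Its log2 fold change was 0.51 ± 0.08 (edgeR adjusted p = 0.000602). The other TAM receptors went the opposite way. Mertk, which marks phagocytic microglia, astrocytes and macrophages, fell from 8.65 ± 0.0971 to 6.67 ± 0.535 RPKM, a log2 fold change of -0.46 (edgeR adjusted p = 0.00206). Tyro3, the TAM receptor of neurons, fell from 28.3 ± 1.58 to 19.5 ± 3.83 RPKM, a log2 fold change of -0.62 (edgeR adjusted p = 0.00329). Axl therefore held 11.7%, 11.9% and 12.1% of the summed TAM receptor RPKM in control libraries and 18.9%, 23.8% and 24.8% in TBI libraries, groups that do not overlap (exact two-sided permutation test p = 0.1, the smallest 3 against 3 libraries can give, and 0.12 adjusted over 6 such shares).

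The ligands that bridge dead cells to their receptors also moved apart. Pros1, protein S, rose from 3.58 ± 0.329 to 12.7 ± 0.369 RPKM, a log2 fold change of 1.74 (edgeR adjusted p = 1.09e-07), while Gas6 was at 18.1 ± 1.65 and 21.1 ± 0.82 RPKM and was not called (edgeR adjusted p = 0.343). Mfge8, a bridge to integrins that astrocytes make, fell from 29.2 ± 1.72 to 15.3 ± 1.84 RPKM, a log2 fold change of -1.01 (edgeR adjusted p = 1.15e-05). Dock1, an activator of Rac during engulfment, rose from 3.53 ± 0.109 to 7.54 ± 0.601 RPKM, and Megf10, an engulfment receptor of astrocytes, fell from 2.92 ± 0.191 to 2.23 ± 0.158 RPKM. In the whole list of apoptotic cell uptake, 2 of 18 tested genes were higher, 4 were lower and 12 were not called, with a median log2 fold change of -0.06. Beside this list and those below stand the shares over all protein-coding genes, 16.5% higher and 11.2% lower.

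Of the other scavenger receptors, 7 of 14 tested were higher and none lower, with a median log2 fold change of 0.53. Cd14, the co-receptor for bacterial lipopolysaccharide, rose from 0.927 ± 0.104 to 17.0 ± 8.35 RPKM, with TBI libraries at 15.4, 9.57 and 26. Cxcl16, a membrane-bound chemokine that also takes up oxidised lipoprotein, rose from 0.386 ± 0.1 to 1.83 ± 0.432 RPKM and Stab1, a scavenger receptor of resident macrophages, from 0.954 ± 0.0632 to 2.59 ± 0.492. Of other class A receptors, Colec12 and Scara5 had log2 fold changes of -0.13 (not called, edgeR adjusted p = 0.572) and 2.04 (edgeR adjusted p = 7.99e-05), the second at 0.0908 ± 0.0173 and 0.397 ± 0.087 RPKM. Scara3 rose from 5.06 ± 0.336 to 6.85 ± 0.362 RPKM (edgeR adjusted p = 0.0157, and 0.0709 without TBI replicate 1). Marco had 2, 1 and 0 counts in control and 6, 17 and 28 in TBI libraries and was too low to be tested.

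The genes of the phagosome and lysosome, Cd68, Gpnmb and Cst7, rose by 1.89 to 2.57 on the log2 scale. Cd68, a glycoprotein of macrophage lysosomes (chromosome 11, 69664213 to 69666646, minus strand), was at 2.30, 3.57 and 2.88 RPKM in control and 14.4, 13.6 and 17.2 RPKM in TBI libraries. The lowest TBI library stood well above the highest control library, and Cd68 became the most abundant of the 9 risen genes per length. Its log2 fold change was 2.29 ± 0.15 (edgeR adjusted p = 7.22e-07). Among its relatives of the LAMP family, Lamp2, a lysosomal membrane protein, rose from 14.8 ± 0.975 to 29.0 ± 2.03 RPKM, a log2 fold change of 0.89 (edgeR adjusted p = 1.55e-05). Lamp1 had a log2 fold change of 0.11 (edgeR adjusted p = 0.431) and was not called. Lamp5, a member made by neurons, fell from 53.5 ± 11.2 to 19.0 ± 2.45 RPKM, a log2 fold change of -1.58 (edgeR adjusted p = 1.71e-05).

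Gpnmb, a transmembrane glycoprotein of lysosome-rich macrophages and a known target of MITF family factors (chromosome 6, 49036518 to 49058182, plus strand), was at 0.352, 0.369 and 0.336 RPKM in control and 2.53, 1.66 and 2.43 RPKM in TBI libraries. Control libraries were tightly grouped, and TBI replicate 2 was the lowest of the injured ones. Its log2 fold change was 2.57 ± 0.17 (edgeR adjusted p = 1.05e-06). The table also holds 2 FANTOM3 cDNA clone rows at the 5′ end of Gpnmb, which overlap it on its strand and had log2 fold changes of 2.62 and 2.54. Its relative Pmel, of pigment cells, was at 0.271 ± 0.0656 and 0.333 ± 0.0953 RPKM and was not called (edgeR adjusted p = 0.68).

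Cst7, cystatin F, an inhibitor of cysteine proteases inside endosomes and lysosomes (chromosome 2, 150570415 to 150578944, plus strand), was the least abundant of the 10 in injured cortex, at 0.655, 0.520 and 0.958 RPKM against 0.211, 0.109 and 0.218 RPKM in control. Counts were only 8 to 18 in control and 37 to 65 in TBI libraries. The groups were apart, and the log2 fold change of 1.89 had the largest error of the 10, with a 95% interval of 1.07 to 2.71 (edgeR adjusted p = 0.004). Cathepsin C, Ctsc, a protease that cystatin F inhibits, rose from 2.06 ± 0.189 to 13.2 ± 1.82 RPKM, a log2 fold change of 2.60 (edgeR adjusted p = 3.1e-08). Cst7 as a share of the summed RPKM of Cst7 and Ctsc was 10.3%, 4.88% and 9.02% in control and 5.18%, 4.03% and 5.89% in TBI libraries, and the groups overlap (exact two-sided permutation test p = 0.3). Across the cystatins and their target proteases, 6 of 8 tested genes were higher and 1 lower, with a median log2 fold change of 0.74. Cstb, a cytosolic cystatin, rose from 13.5 ± 0.744 to 29.0 ± 2.33 RPKM and Ctsl, cathepsin L, from 25.1 ± 1.54 to 47.7 ± 2.84. Cst3, the abundant secreted cystatin C, went from 446 ± 17.8 to 374 ± 26.8 RPKM (edgeR adjusted p = 0.0125, and not called without control replicate 1, at 0.0581, or without TBI replicate 1, at 0.0522).

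Lgals3, galectin 3, a sugar-binding lectin of activated macrophages that also gathers on damaged lysosomes (chromosome 14, 47373860 to 47386167, plus strand), had the second largest rise. It was at 0.116, 0.144 and 0.186 RPKM in control and 10, 7.19 and 10.8 RPKM in TBI libraries, with 11 to 22 and 730 to 1042 counts. No control library came near a TBI library, and the log2 fold change was 5.86 ± 0.22 (edgeR adjusted p = 1.15e-08). Of 8 other tested genes of galectins and a galectin ligand, 4 were higher and none was lower, with a median log2 fold change of 0.73. Galectin 1, Lgals1, was already present in control cortex and rose from 4.96 ± 0.479 to 28.5 ± 0.927 RPKM, a log2 fold change of 2.44 (edgeR adjusted p = 2.28e-08). Lgals3 was 2.50%, 2.87% and 3.29% of the summed RPKM of the pair in control libraries and 26.6%, 20.3% and 26.7% in TBI libraries. The galectin 3 binding protein gene Lgals3bp rose from 2.75 ± 0.471 to 9.24 ± 2.4 RPKM, and Lgals9 from 1.05 ± 0.221 to 2.46 ± 0.699.

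The lipid genes Apoe and Lpl moved in opposite directions. Apoe, the main apolipoprotein of brain lipoproteins and in normal brain mostly a product of astrocytes (chromosome 7, 19696244 to 19699166, minus strand), was at 534, 543 and 550 RPKM in control and 432, 501 and 421 RPKM in TBI libraries. Every TBI library was below every control library, by a small margin for TBI replicate 2. Its log2 fold change was -0.34 ± 0.08 with a 95% interval of -0.52 to -0.16 (edgeR adjusted p = 0.0122). The call did not hold without control replicate 3 (edgeR adjusted p = 0.0528), without TBI replicate 1 (0.0525), or with limma on log2(RPKM + 0.1) or log2(RPKM + 1), at adjusted p = 0.0653 and 0.0697, and adjusted p ran from 0.00113 to 0.0697 over its 14 alternatives. Apoe was 97.3 to 97.7% of the summed RPKM of the 10 genes in control libraries and 87.0 to 90.5% in TBI libraries. The summed RPKM of the other 9 was 13 to 14.9 in control and 52.6 to 62.9 in TBI libraries.

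Lpl, lipoprotein lipase, which frees fatty acids from lipoprotein triglyceride (chromosome 8, 68880519 to 68906932, plus strand), was at 3.11, 4.07 and 3.05 RPKM in control and 8.43, 10.4 and 9.44 RPKM in TBI libraries. Control replicate 2 and TBI replicate 2 were the highest of their groups, which did not overlap. The log2 fold change was 1.39 ± 0.11 (edgeR adjusted p = 4.66e-06). A FANTOM3 clone row on the opposite strand inside Lpl (chromosome 8, 68892362 to 68893093) had a log2 fold change of 1.27 ± 0.21. The labels describe dUTP marking of a cDNA strand, but the strand setting of the counting is not given, so reads of this row and of Lpl cannot be told apart. Angptl4, an inhibitor of lipoprotein lipase, rose from 0.714 ± 0.0904 to 6.01 ± 1.94 RPKM, a log2 fold change of 2.99 (edgeR adjusted p = 2.18e-06). Apoc2, the cofactor that activates the lipase, named after its values were seen, had 1 count in each control library and 35, 30 and 36 in the TBI libraries, a ratio of 35.7 with an exact 95% counting interval of 11.9 to 176. Lmf1, which matures the lipase, was not called, at 3.85 ± 0.261 and 3.59 ± 0.139 RPKM with an edgeR adjusted p of 0.312. Nor was the endothelial lipase Lipg, at 1.14 ± 0.29 and 1.23 ± 0.687 RPKM with an adjusted p of 0.947, whose log2 fold change of 0.05 changed sign in 5 alternatives. The hepatic lipase Lipc was at 0.133 ± 0.0544 and 0.0732 ± 0.0366 RPKM and was not called (edgeR adjusted p = 0.243).

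Genes of lipoproteins and their receptors split, since of 14 tested 5 were higher and 4 lower, with a median log2 fold change of 0.08 (2 lower without TBI replicate 1). Apod, an apolipoprotein of glia, rose from 40.8 ± 3.65 to 142 ± 9.76 RPKM, a log2 fold change of 1.72 (edgeR adjusted p = 1.65e-07). Clu, clusterin, rose from 208 ± 8.97 to 287 ± 8.1 RPKM, in contrast to Apoe. Pltp, a phospholipid transfer protein, fell from 10.9 ± 0.685 to 6.53 ± 0.573 RPKM, and the sorting receptor Sorl1 fell from 29.7 ± 3.83 to 19.9 ± 1.91. Of 19 tested genes of fatty acid binding and lipid droplets, 6 were higher and 3 lower (median log2 fold change 0.18). Plin2, the coat protein of lipid droplets, rose from 1.44 ± 0.111 to 11.8 ± 2.97 RPKM, a log2 fold change of 2.95 (edgeR adjusted p = 1.72e-07) and Plin4 from 1.47 ± 0.417 to 3.74 ± 1.16. Hilpda, which restrains lipolysis, rose from 1.69 ± 0.225 to 2.99 ± 0.503 RPKM (edgeR adjusted p = 0.00987, and 0.0541 without TBI replicate 3). Fabp3, a fatty acid binding protein of neurons, fell from 48.2 ± 5.12 to 33.0 ± 0.748 RPKM.

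Of 10 transcription factors that sense lipids or drive lysosomal genes, 4 were higher and 1 lower (2 lower without control replicate 2), with a median log2 fold change of 0.32. Nr1h3 (LXR alpha) had a log2 fold change of 0.65 (edgeR adjusted p = 0.0229), Mitf 0.38 (0.0307) and Tfe3 0.29 (0.0356). The fourth, Tfec, was low, at 0.0288 ± 0.0191 and 0.243 ± 0.131 RPKM. Without control replicate 1 its log2 fold change was 3.63, against 3.0 with all libraries. Each of these 3 calls was lost without control replicate 1, control replicate 3 or TBI replicate 1. Nr1h3 and Tfe3 were also lost without TBI replicate 3, and Mitf without TBI replicate 2. Their edgeR adjusted p reached 0.119, 0.158 and 0.156, in that order of genes. The count of 4 became 1 or 2 in each of the 4 fits without control replicate 1 (2), control replicate 3 (1), TBI replicate 1 (1) or TBI replicate 3 (2). The fatty acid sensor Ppara fell from 0.816 ± 0.0831 to 0.499 ± 0.0854 RPKM.

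**Figure D2:**
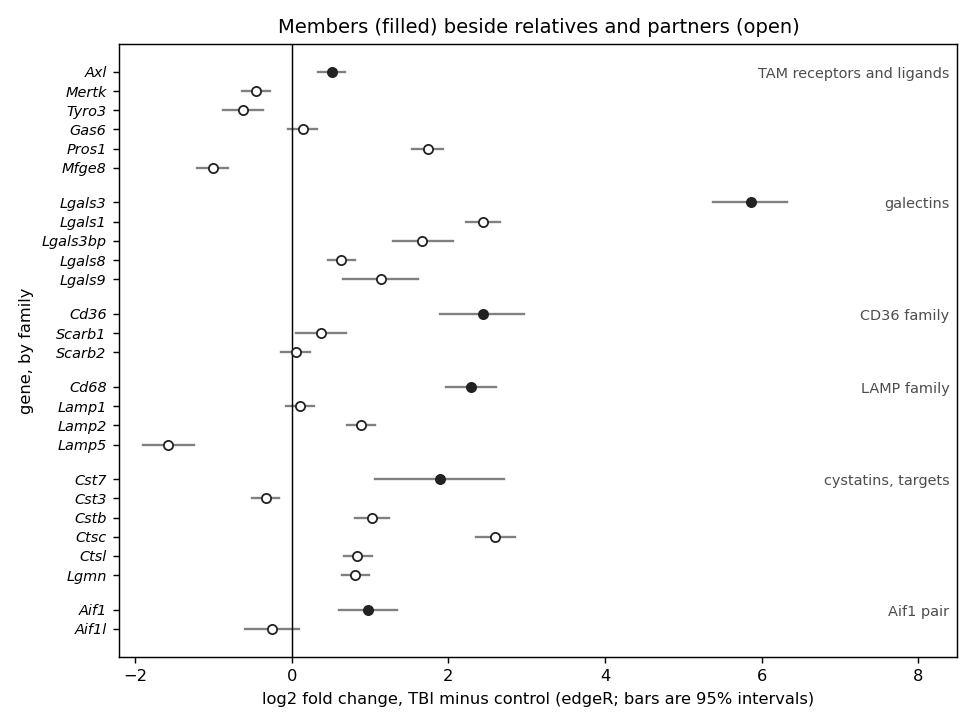
Log2 fold change (TBI minus control, edgeR, bars are 95% intervals) of members (filled) and of relatives and partners (open), grouped by family. Axl lies right of 0 while Mertk and Tyro3 lie left of it, Lgals3 lies right of the other galectins, and Aif1 and Aif1l lie on opposite sides of 0.

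Aif1, the gene of IBA1, an actin-bundling protein by which microglia and macrophages are commonly stained (chromosome 17, 35170991 to 35176005, minus strand), was at 1.55, 1.46 and 1.25 RPKM in control and 3.24, 2.90 and 2.66 RPKM in TBI libraries. Every TBI library stood above every control library, and its log2 fold change was 0.97 ± 0.17 (edgeR adjusted p = 0.00174). The related gene Aif1l was at 1.85 ± 0.256 and 1.65 ± 0.301 RPKM and was not called (log2 fold change -0.25, edgeR adjusted p = 0.345). Relative to Aif1 in the same library, Msr1 was at a ratio of 0.0313 to 0.0619 in control and 1.93 to 3.92 in TBI libraries. For Lgals3 the ratio was 0.0752 to 0.149 in control and 2.48 to 4.05 in TBI libraries. Axl and Apoe fell relative to Aif1 in every TBI library, Axl from 3.28 to 4 down to 2.23 to 2.91 and Apoe from 345 to 439 down to 133 to 173. The Lpl ratio overlapped, at 2.01 to 2.78 and 2.60 to 3.59.

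**Figure D3:**
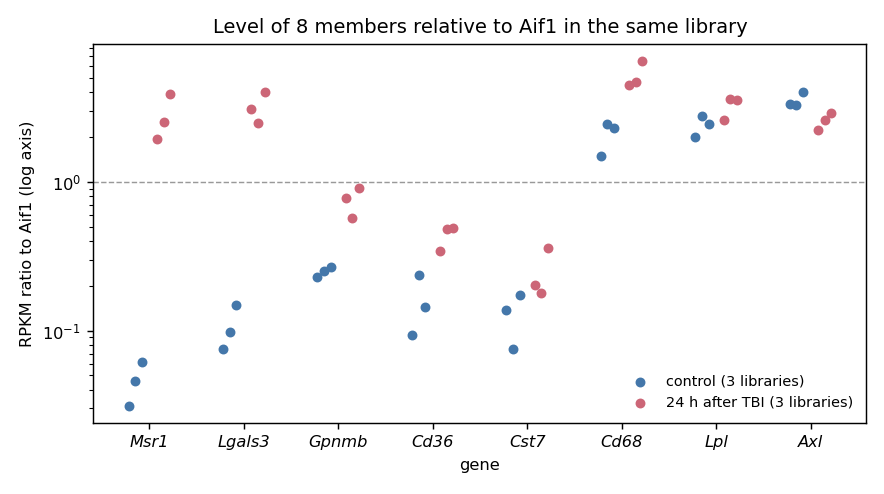
RPKM of 8 genes divided by the RPKM of Aif1 in the same library (log axis), for 3 control and 3 TBI libraries. Msr1 goes from 0.0313 to 0.0619 up to 1.93 to 3.92, the Lpl groups overlap, and Axl is lower in TBI.

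The order of the levels per length therefore changed with injury. In control cortex it ran Apoe, Axl, Lpl, Cd68, Aif1, Gpnmb, Cd36, Cst7, Lgals3 and Msr1. Libraries of Lpl and Cd68 overlapped in that order, as did those of Gpnmb and Cd36, of Cd36 and Cst7, and of Cst7 and Lgals3. At 24 h the order was Apoe, Cd68, Lpl, Lgals3, Msr1, Axl, Aif1, Gpnmb, Cd36 and Cst7. Neighbours overlapped there from Lpl to Lgals3, from Lgals3 to Msr1 and from Msr1 to Axl. Lgals3 and Msr1 thus went from the foot of the order to the range of Lpl and Axl.

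The injured libraries did not rank alike for all genes. TBI replicate 2 was the lowest of the 3 for Cd68, Gpnmb, Cst7 and Lgals3 and the highest for Cd36, Apoe and Lpl. TBI replicate 3 was the highest for Msr1, Axl, Cd68, Cst7 and Lgals3. Leaving out any 1 library kept the 9 rises called, with log2 fold changes of 6.61 to 7.02 for Msr1, 5.73 to 6.07 for Lgals3, 2.22 to 2.86 for Cd36 and 1.61 to 2.07 for Cst7.

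**Figure D4:**
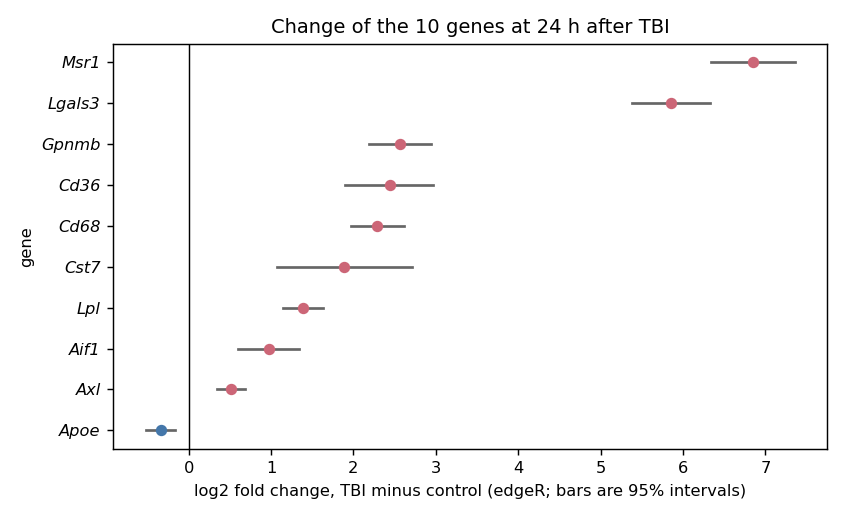
Fitted log2 fold change (TBI minus control, edgeR) of each of the 10 genes, with 95% intervals as bars. Msr1 (6.85) and Lgals3 (5.86) stand apart, Axl (0.51) and Aif1 (0.97) are the smallest rises, and Apoe (-0.34) lies below 0.

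All 18 deposited transcripts of the 10 genes were tested, and 17 were higher and 1, that of Apoe, lower, beside 10.1% higher and 9.81% lower of 49090 transcript rows. For 6 genes there is 1 transcript row, whose counts equal those of the gene. The 2 Lgals3 forms rose by 5.85 on the log2 scale and the 3 Axl forms by 0.50 to 0.52. As for Cd36, the forms of Lgals3 hold nearly the same counts as each other, and so do those of Axl, so the table does not separate them. The 2 Msr1 forms differ in counts, as given above, and rose by 6.61 and 6.83 on the log2 scale.

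Genes of a microglial signature linked to the lipid receptor TREM2, to which several of the 10 belong in the literature, were mostly higher. The link is to the signature, and not each listed gene is taken to depend on TREM2. None of the 10 is among the 22 genes counted here, so the fall of Apoe is not in the count. Which cells made this RNA, and whether it depended on TREM2, was not tested. Of 22 tested, 16 were higher and 1 lower, with a median log2 fold change of 1.01. The lower one, Ank, named after its values were seen, went from 41.1 ± 3.96 to 35.3 ± 0.613 RPKM (edgeR adjusted p = 0.0335). The count of lower genes was 0 without control replicate 1 or 3 or any 1 of the TBI libraries. Clec7a, the beta-glucan receptor dectin 1, rose from 0.0996 ± 0.0377 to 1.41 ± 0.492 RPKM, a log2 fold change of 3.76 (edgeR adjusted p = 7.24e-06). The chemokine Ccl6 rose from 0.556 ± 0.131 to 7.73 ± 1.72 RPKM and Spp1, osteopontin, from 3.15 ± 0.726 to 37.5 ± 7.49. Tyrobp, the adaptor of TREM2, rose from 7.27 ± 0.197 to 18.1 ± 3.12 RPKM. Trem2 itself was at 2.95 ± 0.339 and 3.71 ± 0.269 RPKM and was not called (log2 fold change 0.26, edgeR adjusted p = 0.241).

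Markers of several cell types moved with these genes, and their part in the rises was not tested. All 10 markers of monocytes and the macrophages they form were higher, with a summed level of 4.2 to 4.54 RPKM in control and 34.3 to 43.2 RPKM in TBI libraries, and Ccr2 and Arg1 rose by 4.32 and 6.26 on the log2 scale. Of 10 homeostatic microglia markers 3 were higher and 6 lower, with summed levels of 84.4 to 88.5 and 80.4 to 86.0 RPKM. P2ry12, through which resting microglia sense purines, fell from 16.3 ± 0.466 to 4.69 ± 0.441 RPKM, and the sum of the other 9 was 68.6 to 71.8 RPKM in control libraries and higher, at 76.1 to 80.8 RPKM, after injury. Of 8 border macrophage markers 6 were higher (summed 4.18 to 5.06 and 13.8 to 17.2 RPKM), as were 6 of 8 tested neutrophil markers (1.01 to 3.41 and 36.5 to 108 RPKM). Among endothelial markers, 5 were higher and 1 lower of 10 (62.3 to 71.0 and 85.7 to 87.6 RPKM). Astrocyte markers gave 4 higher and 2 lower of 10 and a median log2 fold change of -0.09, and their sum of 474 to 511 and 595 to 648 RPKM was moved by 1 gene. Gfap, an intermediate filament of reactive astrocytes, rose from 21.2 ± 3.45 to 197 ± 21.6 RPKM, while the sum of the other 9 was 457 to 490 RPKM in control libraries and lower, at 415 to 430 RPKM, after injury. Those 9 did not fall together, since the rest of the higher astrocyte markers were among them. Slc1a2, the most abundant of the 9 and the main glutamate transporter of astrocytes, fell from 194 ± 13 to 147 ± 6.63 RPKM. The neuron markers gave 4 lower of 10, with summed levels of 1750 to 1830 RPKM in control and 1450 to 1590 RPKM in TBI libraries. Of the lymphocyte markers none of 3 tested was called (0.705 to 1.82 and 1.79 to 2.29 RPKM). No monocyte, microglia, border macrophage, neutrophil, astrocyte, endothelial, neuron or lymphocyte marker in the table was at 0 in all control or all TBI libraries.

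For each of the 10 genes, the protein-coding genes with the most similar change over the 6 libraries were looked up. The 11465 candidates had a mean of at least 1 RPKM. The measure was the root mean square difference of log2 CPM after centring on the control mean. Centring takes out the level, so this distance mostly reflects the size of the change. Genes such as Lcn2, Ccl4 and Arg1 reached 1 RPKM through the TBI libraries, with control means of 0.435, 0.0475 and 0.137 RPKM. Shared regulation was not tested. Msr1 was closest to Lcn2 and Ccl4 (0.417 and 0.461), and Lgals3 to Timp1 and Arg1 (0.315 and 0.430). Cd68 was closest to Fgf2 and Fcer1g (0.105 and 0.110), Gpnmb to Ifitm3 and Ifi30 (0.156 and 0.160), and Cst7 to C1ra and Antxr2 (0.136 and 0.204). Cd36 lay nearest to Emp3 and Mmp19 (0.244 and 0.268), and Lpl to Gsdmd and Cchcr1 (0.0600 and 0.105). The nearest genes of Axl were Stt3a and Calu (0.0150 and 0.0340), those of Aif1 were Cast and C1qa (0.0860 and 0.0960), and those of Apoe were Cnrip1 and Phgdh (0.0230 and 0.0290).

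Depth and library structure bear on all of these values. Total counts over gene rows were 67252519 to 83929814 in control and 68808787 to 72169720 in TBI libraries, with overlapping rows counting a read more than once. The first principal component of log2 CPM took up 58.5% of the variance, with control and TBI libraries on opposite sides, and the second, at 14.3%, set control replicate 2 apart from the other control libraries.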

How the data were processed

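RNA-seq of 3 control and 3 TBI libraries was analysed from the tables the authors deposited, which hold a raw count and an RPKM value per library for each gene and transcript row, per the file headers. TopHat2 and the build mm10 are named in the submitters' processing notes. For the counting step, no tool, strand option, filter or annotation release was found (not given in the sources used here). Rows overlap, so 1 read can count in several rows.

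Differences between groups were fitted to the counts with edgeR 4.0.16 (R 4.3.3) by quasi-likelihood F tests with group as the only term. Rows were kept by filterByExpr at a minimum count of 10 and a total of 15, libraries were scaled by TMM, p-values were adjusted by Benjamini and Hochberg's method across every tested row, and an adjusted p under 0.05 made a call. The SE is the size of the log2 fold change divided by the square root of F. The fit was tested on simulated data. Alternatives were DESeq2 1.42.0 size factors, its Wald test, limma-voom (limma 3.58.1), no filter, a replicate block, FANTOM3 rows left out, each library left out, and limma on log2(RPKM + 0.1) or log2(RPKM + 1).

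The members and lists were chosen with earlier results of these data known. The text names the 10 genes, up to 3 called genes of each list with the largest change and at least 1 RPKM in the higher group, list genes that are close relatives of the 10, and 2 nearest genes for each. Further partners, markers and list genes were chosen after their values were seen. Protein-coding genes were matched by symbol to RefSeq GRCm38.p6. Replicates of a group differed by more than counting noise, with a median chi-square per row of 1.76 to 2.76. Intervals of shares and ratios cover counting error only.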

Additional observations from a re-analysis of the deposited data

How the results depend on the processing

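Of 140 values of the 10 genes under 14 alternatives, 136 kept direction and call, and 4, all of Apoe, kept the direction but were no longer called. The count of genes called lower among the 10 was then 0 with limma on log2(RPKM + 0.1) and on log2(RPKM + 1), and it ranged from 0 to 1 when 1 library was left out. The 2 RPKM fits used no TMM scaling and were adjusted over 16941 named rows only. The median log2 fold change of those rows was 0.09 and 0.06 in these fits, in that order, against 0.02 in the main fit. Apoe was at -0.27 in both. What part the scaling or the left-out libraries had in the lost calls was not tested. The 9 rises were called in all 14 alternatives, and none of 198 transcript values changed its call. Over all gene rows, 2378 to 4064 were called lower when 1 library was left out, against 3576 with all libraries, and 2367 with FANTOM3 rows left out, where fewer rows are tested. Deviations of same-numbered libraries from their group means had correlations of only 0.0469 to 0.0514 over the rows tested. Counting noise in low rows also lowers such correlations, so this check cannot show whether the numbers pair the libraries. With the replicate block 4249 gene rows were higher and 4010 lower, against 3900 and 3576, and 9 and 1 of the 10 genes were called, as without it. Of 900 values of 75 other named genes, 25 lost and 1 gained a call and 7 changed sign, the last for genes not called. Those were Lipg (log2 fold change -0.07 with limma-voom, -0.06 with a replicate block, and -0.52 to 0.30 when 1 library was left out, with -0.02 and -0.07 without control replicates 1 and 3), Pmel (-0.01 to 0.41 when 1 library was left out) and Scarb2 (-0.02 without control replicate 2). Leaving out TBI replicate 3 moved Lcn2 from 6.91 to 6.21. Of 216 counts over lists, 13 moved by more than 1.5 times. Cst7, with 8 to 18 control counts, is the gene among the 10 with the widest interval.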
